A study of Mus musculus with 4 samples.

Results

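The transcripts described here encode myostatin, activin, BMP and TGF-beta ligands of the muscle, with GDF15, and the secreted antagonists follistatin and follistatin-like 3. Members were chosen by gene name: every probe that was not a control and that the array's annotation assigns to Mstn, Inhba, Bmp2, Bmp4, Gdf15, Tgfb1, Tgfb2, Tgfb3, Fst or Fstl3. This rule gave 12 probes for the 10 genes, of 55681 probes on the array. Bmp4 and Tgfb2 had 2 probes each, and the other genes had 1.

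The RNA came from C2C12 cells, a mouse myoblast line that divides in growth medium and can fuse into myotubes. FXR1P is an RNA-binding protein that muscle cells contain in several isoforms, and the study asked which transcripts change when it is lost. Cells of the siFxr1 group were transfected transiently with an siRNA against exon 14, which all Fxr1 mRNAs contain, and cells of the siControl group with a random siRNA of like GC content. Both were analysed 48 hours later, so each comparison is between 2 transfected cultures of 1 cell line, and untransfected cells were not analysed here. The 2 conditions were run in 2 independent experiments, 1 one-colour array for each condition and experiment (4 arrays, n = 2 per condition), and the siFxr1 and siControl arrays of an experiment shared a slide.

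Ligands of this superfamily are secreted as dimers of cleaved proforms. They bind pairs of type II and type I receptor kinases, which phosphorylate Smad proteins: Smad2 and Smad3 for myostatin, the activins and the TGF-betas, and Smad1, Smad5 and Smad9 for most BMPs. Follistatin and follistatin-like 3 bind activin and myostatin outside the cell and keep them from their receptors. In muscle, myostatin limits mass, activin A and the TGF-betas are known to hold back differentiation of myoblasts, and follistatin favours growth.

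Values are normalized log2 signals, so a difference of 1 is 2-fold. A probe was read as measured where the scanner software marked it well above background. Of the 12 probes, 9 were measured on all 4 arrays and cover 8 of the 10 genes, and 3 were measured on none. Since arrays measure a whole culture, fewer cells of a kind and less RNA per cell cannot be told apart.

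The probes of Mstn, Bmp2 and one of the probes of Bmp4 were not well above background on any of the 4 arrays, so no difference is given for them. Mstn encodes myostatin (A_51_P384901, mm9 chr1:53124482-53124541, plus strand) and had values of 3.58 and 2.87 in siFxr1 and 2.88 and 2.89 in siControl (experiment 1, then experiment 2). Bmp2 (A_55_P2041961, chr2:133388260-133388319, plus strand) had values of 2.67 and 2.78 in siFxr1 and 2.80 and 2.79 in siControl. The dim Bmp4 probe (A_55_P1959022, chr14:47003198-47003257, minus strand) had values of 3.20 and 2.84 in siFxr1 and 3.08 and 2.89 in siControl. Of its 60 bases 9 are G or C (15.0%), as few as in 27 of the 55681 probes (0.0485%), where the median probe has 43.3%. The other Bmp4 probe starts 193 bases away, has 23 G or C bases (38.3%) and was measured on all arrays. What base composition contributes to the dim signal was not tested.

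The sequences of 3 of the measured ligand probes are shown to let a reader see what was hybridised. They are taken to lie in the part of the mRNA that encodes the mature ligand, from general knowledge of these proteins and not from an annotation. Each has a reading frame without a stop codon, which does not decide this. The probes of Gdf15, Fstl3 and Tgfb3, both probes of Bmp4 and the other probe of Tgfb2 have such a frame as well. The Tgfb1 and Tgfb2 probes overlap in sequence, and capitals mark the bases that are the same in their ungapped overlap, 28 of 41 (68.3%). The Inhba probe is in lower case because no base of it is singled out. The siRNA follows as the agent of the knockdown.
Tgfb1 A_51_P390715: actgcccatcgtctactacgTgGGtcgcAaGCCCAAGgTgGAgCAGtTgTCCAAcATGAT
Tgfb2 A_65_P10913: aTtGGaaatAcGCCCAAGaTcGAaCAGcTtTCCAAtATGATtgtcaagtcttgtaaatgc
Inhba A_51_P239750: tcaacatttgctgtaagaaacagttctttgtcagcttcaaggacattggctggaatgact
siFxr1 exon 14: gcaauccauacagcuuacuugaua

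The knockdown was visible in both experiments. The Fxr1 probe A_51_P372463 had values of 10.16 and 10.77 in siFxr1 and 13.85 and 13.71 in siControl, so that it was lower by 3.69 and 2.93 within the experiments (log2), and a second probe (A_55_P2069415) was lower by 3.84 and 3.38. With 2 arrays against 2, an exact permutation test cannot give a p below 0.333, and the limma model called no probe of the array at all between the conditions: 0 of 55681 (0%) had a B value, the log odds of a change, above 0, the threshold of the study's methods. The study itself reported significant transcripts at that threshold. Its methods describe mean ratios over all comparisons, so the model here is not the same fit. The lowest Benjamini-Hochberg adjusted p of limma was 0.950, and that of either Fxr1 probe was 0.950 too. With the experiment as a block over all probes, limma called neither Fxr1 probe (adjusted p = 0.535 for each). With that block and only probes above background, limma called both (adjusted p = 0.0173 for A_51_P372463 and 0.0146 for A_55_P2069415). Without adjustment, 2764 probes (4.96%) had a limma p under 0.05. The first 2 principal components of the arrays held 60.8% and 29.5% of the variance. Arrays of an experiment correlated more closely (0.981 and 0.976) than arrays of a condition (0.965 and 0.961). Myod1, Des, Cdh15 and Pax7 of the 6 myoblast markers were measured on all 4 arrays and Myf5 and Msc on none, all 7 markers of differentiating muscle were measured, and Ptprc of leukocytes, Myh11 of smooth muscle and Adipoq and Plin1 of adipocytes were measured on none. Of the markers of other cells, 3 of 4 for fibroblasts, 2 of 4 for endothelium, 1 of 4 for macrophages, 1 of 4 for adipocytes and 2 of 3 for smooth muscle were measured on all arrays.

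None of the 9 measured probes of the ligands and antagonists was called between siFxr1 and siControl (limma adjusted p from 0.967 to 0.997), and 1 of them, Inhba, had an unadjusted limma p under 0.05. The probes of Inhba, Fst, Fstl3 and Gdf15 and one of Tgfb2 were higher in siFxr1 in both experiments, 5 of 9 against 33.2% of the 25523 probes above background. That Tgfb2 probe, A_65_P10913, differed by 0.19 in experiment 1 and by only 0.002 in experiment 2. The probes of Bmp4 and Tgfb3 were lower in both experiments, 2 of 9 against 31.0%, and those of Tgfb1 and one of Tgfb2 had opposite signs, 2 of 9 against 35.6%. The median difference of the 9 probes was 0.15 and that of all probes above background 0.02. The siFxr1 arrays were both above the siControl arrays for Inhba and Gdf15 (2 of 9, with 15.9% of all probes) and both below for Bmp4 (1 of 9, with 14.8% of all probes), so the conditions did not overlap for 3 of 9 probes and for 30.7% of all.

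**Figure D1:**
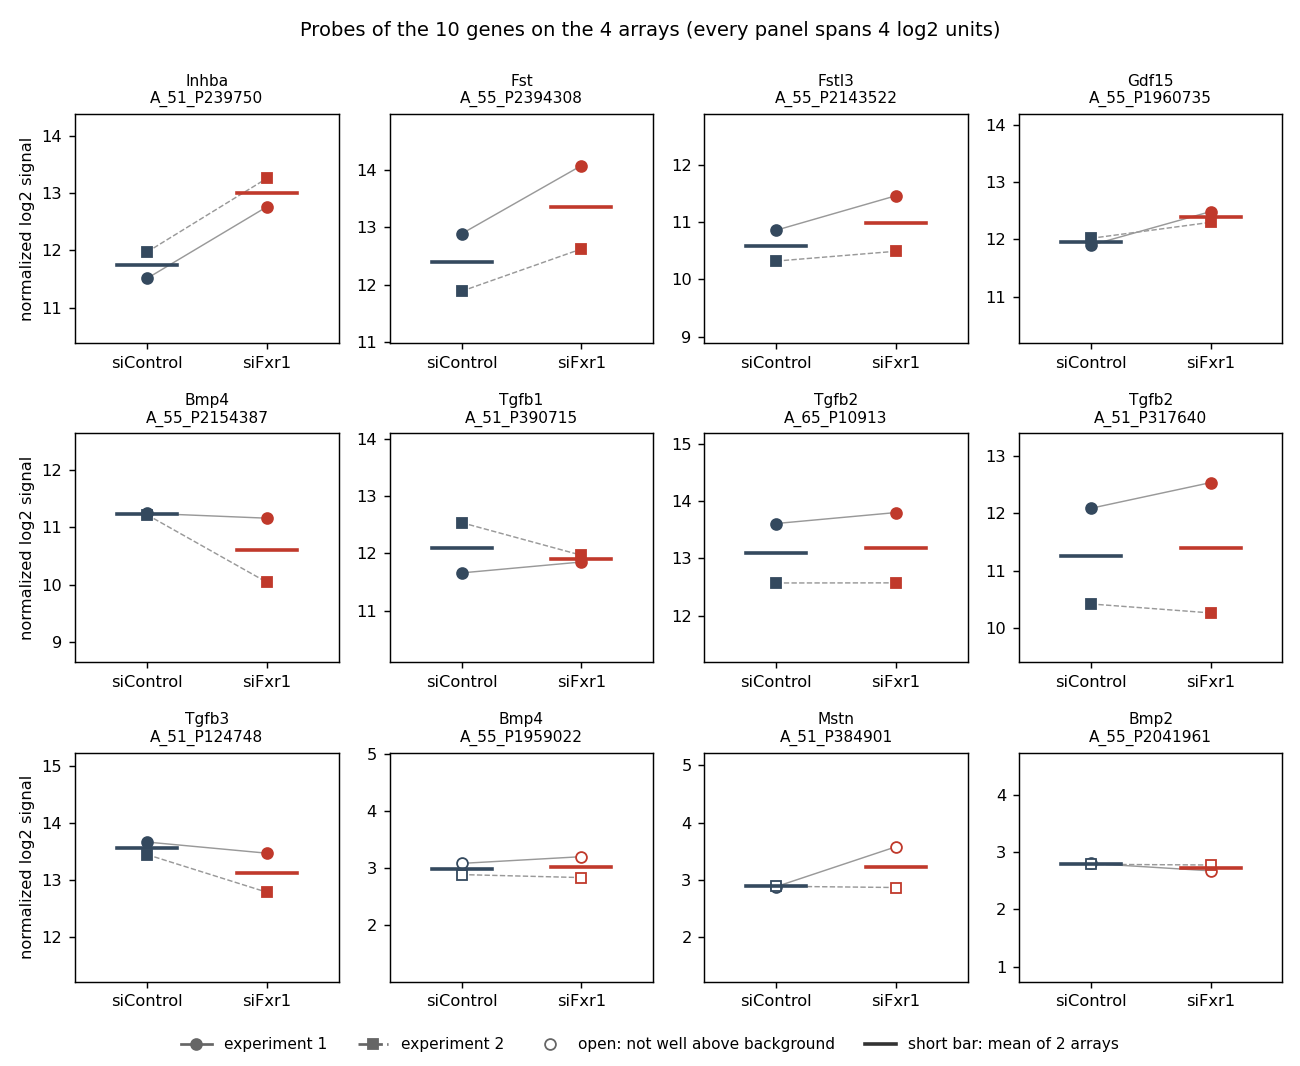
Normalized log2 signal of the 12 probes on the 4 arrays, with siControl on the left and siFxr1 on the right of each panel; circles are experiment 1, squares experiment 2, short bars the mean of 2 arrays, and open symbols mark probes not well above background. Inhba lies between 12.76 and 13.26 in siFxr1 and between 11.51 and 11.97 in siControl, while the signals of Fst and of both Tgfb2 probes are set apart by experiment.

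Inhba had the largest difference between the conditions among the 9 measured probes of the 10 genes. It encodes the beta A subunit, which forms activin A as a homodimer. Its probe (A_51_P239750, mm9 chr13:16118634-16118693, plus strand) had values of 12.76 and 13.26 in siFxr1 and 11.51 and 11.97 in siControl. Both siFxr1 arrays lay above both siControl arrays, and the differences within the experiments were nearly the same, 1.25 in experiment 1 (2.38-fold) and 1.29 in experiment 2 (2.44-fold). The mean difference was 1.27 (SE 0.30, n = 2 per condition, limma adjusted p = 0.967, unadjusted p = 0.021), with an SD of 0.35 among siFxr1 and 0.33 among siControl arrays. Among the 25523 probes above background, 610 (2.39%) had a rise in signal at least as large. Inhba was the only measured member at least 2-fold higher in both experiments, which 1.94% of all probes were, and 0 of the 9 probes were 2-fold lower in both, as 1.72% of all probes were. With the experiment as a block, the unadjusted limma p of Inhba was 0.0062, in a fit where 8.85% of all probes were under 0.05 and 0 were called. Over the 25540 probes above background alone, the blocked limma fit called 354 probes (1.39%), and Inhba missed the threshold there too (B = -0.66, adjusted p = 0.0714).

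Fst encodes follistatin, which binds activin A almost irreversibly. Its probe (A_55_P2394308, chr13:115243565-115243624, minus strand) had values of 14.08 and 12.62 in siFxr1 and 12.89 and 11.89 in siControl. The array of experiment 2 in siFxr1 was below that of experiment 1 in siControl, so the conditions overlapped, although siFxr1 was higher within each experiment, by 1.19 (2.28-fold) and by 0.74 (1.67-fold). The mean difference was 0.97 (SE 0.71, limma adjusted p = 0.975), and 4.35% of all probes above background had one at least as large. With the experiment as a block, the SE was 0.23 and the unadjusted limma p 0.023, and over the probes above background alone the adjusted p of that fit was 0.127.

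Fstl3 encodes follistatin-like 3, a related binder of activin and myostatin. Its probe (A_55_P2143522, chr10:79244916-79244975, plus strand) had values of 11.46 and 10.49 in siFxr1 and 10.86 and 10.32 in siControl. The conditions overlapped, and the differences within the experiments were 0.60 and 0.17 with a mean of 0.39 (SE 0.46, limma adjusted p = 0.975). Without the siFxr1 array of experiment 1 the sign of that mean turned, to -0.10. Both antagonists thus had higher values in siFxr1 in each experiment, and neither was called by limma with or without the experiment as a block.

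Gdf15 encodes a divergent member of the superfamily that many cells secrete under stress. Its probe (A_55_P1960735, chr8:73153293-73153352, minus strand) had values of 12.49 and 12.30 in siFxr1 and 11.90 and 12.02 in siControl. The conditions did not overlap, with differences of 0.59 (1.50-fold) and 0.28 (1.21-fold) within the experiments. The mean of 0.43 (SE 0.17, limma adjusted p = 0.975) had the smallest standard error of the 9 probes in the model without a block. With the experiment as a block, its SE was 0.21 and that of Inhba 0.19.

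Bmp4 encodes a ligand that signals through Smad1, Smad5 and Smad9. Its measured probe (A_55_P2154387, chr14:47003391-47003450, minus strand) had values of 11.16 and 10.04 in siFxr1 and 11.25 and 11.22 in siControl. The siControl arrays differed by little (SD 0.018), and the array of siFxr1 in experiment 2 was the low one: the difference was -0.09 in experiment 1 and -1.18 in experiment 2. The mean was -0.63 (SE 0.46, limma adjusted p = 0.975), and without the siFxr1 array of experiment 2 it was -0.07. The lower mean therefore rests on 1 array.

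Among the TGF-betas, Tgfb1 and Tgfb3 were each represented by a probe printed as 10 spots, which shows the spread within an array. The Tgfb1 probe (A_51_P390715, chr7:26489877-26489936, plus strand) had values of 11.85 and 11.97 in siFxr1 and 11.66 and 12.54 in siControl, means over 8 to 10 spots with SDs between 0.036 and 0.064. Its differences were of opposite sign, 0.19 in experiment 1 and -0.57 in experiment 2. The spread between spots is that of one hybridisation and does not give the spread between cultures. The mean was -0.19 (SE 0.38, limma adjusted p = 0.976).

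The Tgfb3 probe (A_51_P124748, chr12:87397804-87397863, minus strand) had values of 13.47 and 12.79 in siFxr1 and 13.66 and 13.44 in siControl, with SDs between spots of 0.032 to 0.073. The conditions overlapped by a little, since siFxr1 in experiment 1 was above siControl in experiment 2, and the mean difference was -0.43 (SE 0.32, limma adjusted p = 0.975). The differences were -0.19 in experiment 1 and -0.66 in experiment 2, and without the siFxr1 array of experiment 2 the mean was -0.085.

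Tgfb2 had a pair of measured probes, both assigned to the same RefSeq mRNA. The one shown above (A_65_P10913, chr1:188449333-188449392, minus strand) had values of 13.80 and 12.57 in siFxr1 and 13.61 and 12.57 in siControl. The other (A_51_P317640, chr1:188447534-188447593, minus strand) had values of 12.54 and 10.26 in siFxr1 and 12.09 and 10.42 in siControl. Both probes were low on both arrays of experiment 2 and showed little difference between the conditions, with means of 0.10 (SE 0.65) and 0.15 (SE 1.12) and limma adjusted p of 0.996 and 0.997. With the experiment as a block, the SEs were 0.20 and 0.26. The differences within the experiments were 0.19 and 0.00 for the first probe and 0.45 and -0.16 for the second, so the probes differ in sign in experiment 2.

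**Figure D2:**
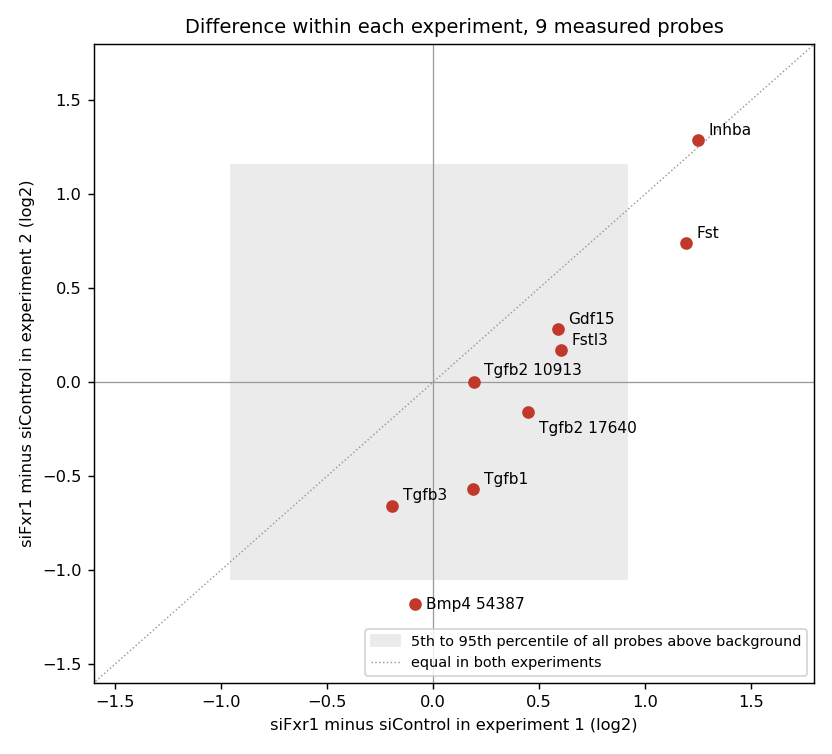
Difference between siFxr1 and siControl (log2) in experiment 1 (x axis) and in experiment 2 (y axis) for the 9 measured probes, with the central 5th to 95th percentile of all probes above background in grey and the line of equal differences dotted. Inhba lies on the line at 1.25 and 1.29, and Bmp4 is near 0 in experiment 1 and at -1.18 in experiment 2.

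Over the measured ligands and antagonists, 6 of the 9 probes lay further apart by experiment than by condition. The share of all probes for which this held was not counted. Experiment, slide and culture share 1 number in the labels and cannot be told apart. In the same limma model turned to the experiments, 927 probes of the array (1.66%) had a B value above 0, with 9817 (17.6%) at an unadjusted p under 0.05 and 0 at an adjusted p under 0.05. None of the 9 probes was among the 927. The arrays of the 2 experiments did not overlap for 6 of 9 probes, near the 56.4% of all probes above background: Fst, Fstl3, both Tgfb2 probes and Tgfb3 were higher in experiment 1, and Tgfb1 was lower there. In both conditions at least 2-fold apart were 3 of 9 probes, Fst and both of Tgfb2, as were 11.0% of all probes above background.

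The second Tgfb2 probe, A_51_P317640, had the largest of these differences, 1.67 between the siControl arrays and 2.28 between the siFxr1 arrays, with a mean of 1.97 (3.93-fold, SE 0.23, limma adjusted p = 0.0818, B = -0.38). A difference at least as far from 0 was found for 3.34% of all probes above background. It passed B above 0 with other scalings or background corrections and with the filter on dim probes, with an adjusted p of 0.00896 where the filter was joined to the condition as a block, a fit that called 1284 probes (5.03%). It did not pass with the condition as a block over all probes (B = -1.09, limma adjusted p = 0.114). The other Tgfb2 probe, A_65_P10913, was higher in experiment 1 by 1.13 (2.19-fold, SE 0.16, limma adjusted p = 0.0957), and Fst by 1.23 (SE 0.55, limma adjusted p = 0.391). Gdf15 differed by 0.03 and Inhba by -0.48 (SE 0.69).

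All 7 markers of differentiating muscle also moved with the experiment, with both arrays of experiment 1 above both of experiment 2, which held for 5611 of the 17847 genes measured by their brightest probe. Myog, the myogenic regulator myogenin, had values of 15.51 and 13.42 in siFxr1 and 15.64 and 13.50 in siControl (experiment 1, then experiment 2). The log2 of the summed signal of the 7 markers was 17.77 and 15.70 in siFxr1 and 17.92 and 15.97 in siControl, and their median difference was 2.12 between the experiments and -0.10 between the conditions. Other markers that did not overlap between the experiments were Pdgfra (-0.67), Pdgfrb (-0.76) and Fabp4 (-1.15), lower in experiment 1, and Acta2 (1.18) and the myoblast marker Cdh15 (0.97), higher there. What the state of differentiation or the presence of other cells contributes to the levels of Tgfb2 and Fst was not tested.

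**Figure D3:**
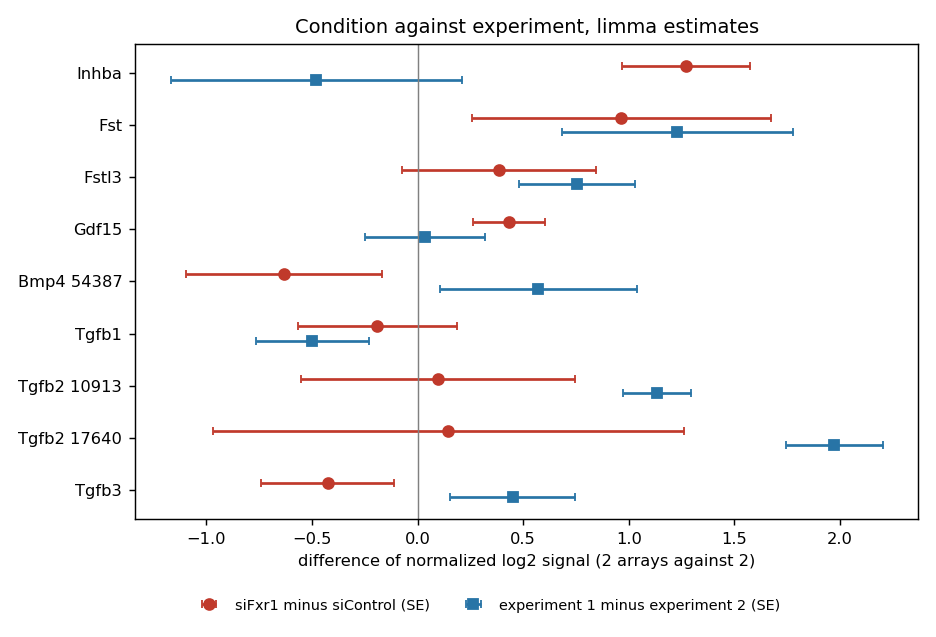
Limma estimates for the 9 measured probes of the difference between the conditions (red circles, siFxr1 minus siControl) and between the experiments (blue squares, experiment 1 minus experiment 2), each over 2 arrays against 2, with bars of 1 standard error on a log2 axis. The bars are from the fits without a block. The difference between the experiments exceeds that between the conditions most clearly for the Tgfb2 probes, at 1.13 and 1.97, and the reverse holds for Inhba, at 1.27 between the conditions.

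The other genes of the pathway were taken as 70 genes in 7 roles, each by its brightest probe. Of these, 54 were measured on all 4 arrays and 8 on none, and 0 were called between the conditions. Signals were higher in siFxr1 in both experiments for 27 of the 54 and lower in both for 10, and 17 had opposite signs. Over the 17847 genes measured in the same way, 33.3% were higher in both and 30.1% lower in both. The median difference was 0.17 for the pathway and 0.02 over all genes. The conditions did not overlap for 13 genes that were higher and 6 that were lower, 35.2% together, where 29.9% of all genes did not.

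Of the 12 other ligand genes 6 were measured, and the inhibin subunit genes in that list, Inha and Inhbb, had higher signals in siFxr1. Inha encodes the alpha subunit, which pairs with a beta subunit to form inhibin, an antagonist of activin. It had values of 10.20 and 8.37 in siFxr1 and 6.90 and 6.87 in siControl. The conditions did not overlap, the differences were 3.30 and 1.49, and the mean was 2.40 (SE 0.73, limma adjusted p = 0.975). Without the siFxr1 array of experiment 1 it was 1.48. Inhbb encodes the beta B subunit of activin B and differed by 0.79 and 2.15, with a mean of 1.47 (SE 0.41, limma adjusted p = 0.975). Nodal differed by 0.06 and 0.08.

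Among the receptors, the signals of Acvr2a and Bmpr1a were lower in siFxr1 by at least 2-fold in each experiment, the only 2 of the 54 genes for which this held. It held for 204 of the 17847 genes measured in the same way. Acvr2a encodes a type II receptor of activin and myostatin and had values of 8.60 and 8.28 in siFxr1 and 9.68 and 9.38 in siControl. Its mean difference was -1.09 (SE 0.22, limma adjusted p = 0.950), and a second probe (A_52_P664656) stood at 0.449 of the siControl signal. Bmpr1a encodes a type I receptor of BMPs, had values of 10.74 and 10.33 in siFxr1 and 12.29 and 11.59 in siControl, and differed by -1.41 (SE 0.35, limma adjusted p = 0.967). The coreceptor endoglin, Eng, differed by -0.46 and -0.73. Of the 12 measured receptors and coreceptors 4 were higher and 3 lower in both experiments, where 33.3% and 30.1% of all genes were.

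In the cell, all 6 Smads of the signalling branch were measured, and 2 were higher and 1 lower in both experiments (33.3% and 30.1% of all genes). Smad2, which acts downstream of activin and TGF-beta, differed by 0.66 and 1.03, the common partner Smad4 by 0.08 and 0.04, and Smad9 by -0.04 and -0.45. Among the inhibitors, Smad6, which blocks BMP signalling, differed by -0.86 and -1.36 with a mean of -1.11 (SE 0.20, limma adjusted p = 0.950). Smad7, which blocks the receptors more broadly, differed by 0.56 and 0.61. Skil, a repressor of Smad-dependent transcription, differed by 0.55 and 0.79, and a second probe (A_52_P597461) by 1.10 and 1.03. Taking the 4 ratios of a siFxr1 over a siControl array as observations, limma called 1107 probes of the array (1.99%), and with them Smad6 and Acvr2a, but no ligand or antagonist of the 9 probes. Those ratios share arrays and are not independent.

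The role with most signals on the higher side was that of extracellular binders other than Fst and Fstl3. There, 9 of 13 measured genes were higher in both experiments and 3 lower. Dcn, which encodes the TGF-beta-binding proteoglycan decorin, differed by 0.60 and 1.94 (mean 1.27, and 0.52 without the siFxr1 array of experiment 2), and the BMP antagonist gene Grem1 by 0.20 and 1.07. Ltbp4, which encodes a latent TGF-beta binding protein, differed by -0.28 and -1.06. Of the proteases that cleave proforms, Furin differed by 0.12 and 0.16. Of the 8 target genes, which TGF-beta or BMP is known to induce, 5 were higher in both experiments and 1 lower. The shares of all genes were again 33.3% and 30.1%. Tgfbi differed by 1.56 and 0.62 (mean 1.09, SE 1.36) and Ctgf by 1.07 and 0.27 (mean 0.67, SE 0.89). For both genes the conditions overlapped. The limma adjusted p was at least 0.975 for each gene named in this paragraph.

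**Figure D4:**
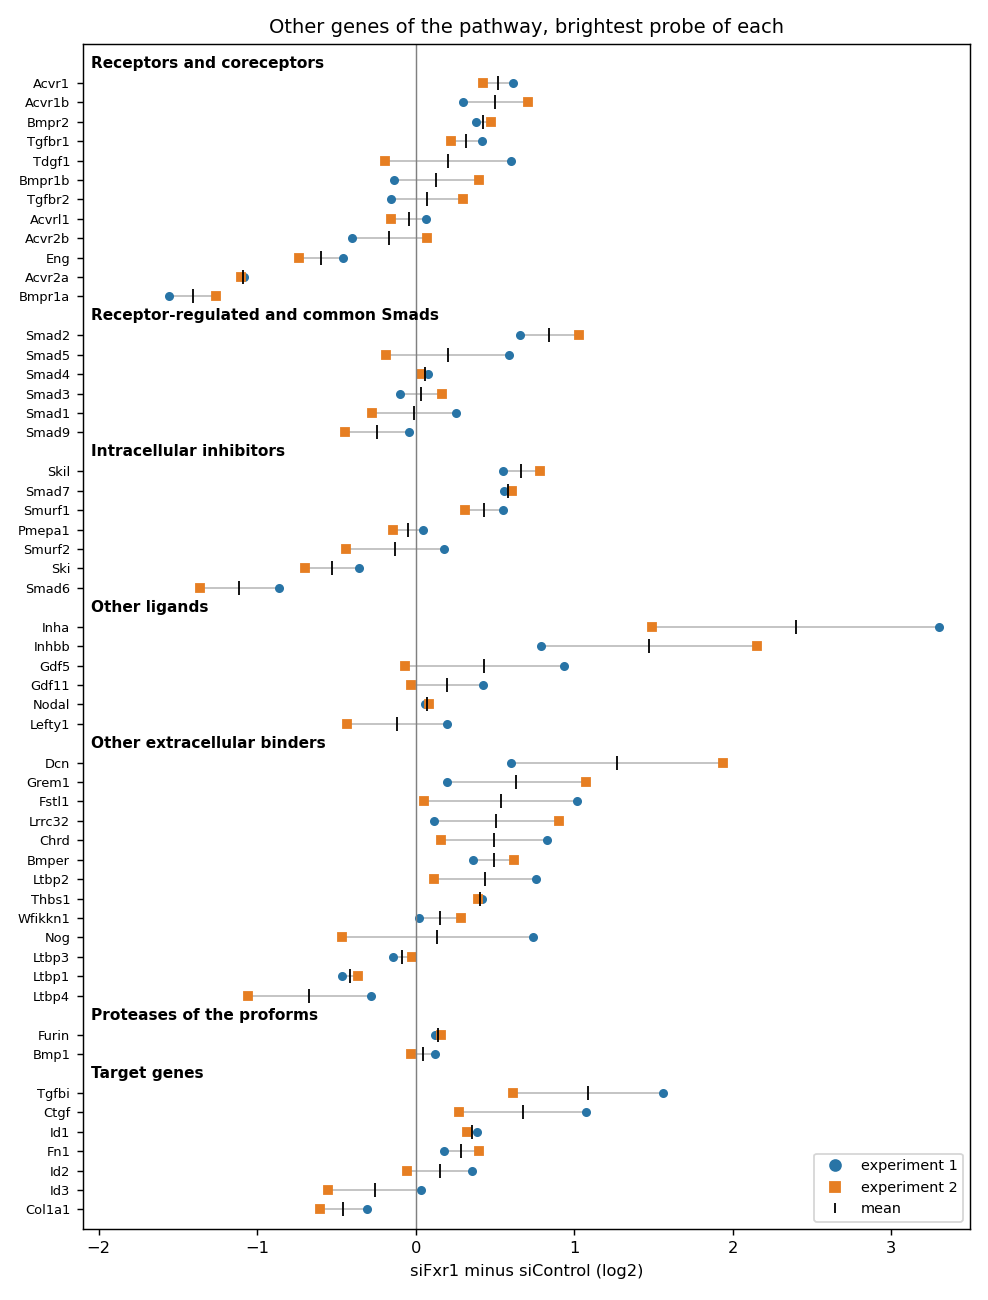
Difference between siFxr1 and siControl (log2) for the measured genes of the pathway in 7 roles (1 target gene of the 54 is not drawn), with experiment 1 as blue circles, experiment 2 as orange squares and the mean as a black tick. Inha is farthest to the right at 3.30 and 1.49, Bmpr1a and Acvr2a lie below -1 in both experiments, and for 17 genes the symbols fall on opposite sides of 0.

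Between the experiments the arrays did not overlap for 29 of the 54 genes (53.7%, with 57.0% of all genes), and 0 of the 54 were called. The largest differences were those of Ltbp2 at -2.52 and of the target gene Tgfbi at -2.40, both lower in experiment 1, and of Gdf5 at 1.88 and Ctgf at 1.53, both higher there. Pmepa1, a target that restrains TGF-beta signalling, was higher by 1.37 in experiment 1, Grem1 was lower by 1.38 and the brightest probe of the protease gene Bmp1 lower by 1.10. The other Bmp1 probes, also measured on all arrays, differed by -0.49 (A_55_P2006708) and by 0.07 with overlapping arrays (A_55_P2006698). Of the 8 target genes, 4 were lower and 1 was higher in experiment 1 with arrays that did not overlap. Over all 17847 genes measured in the same way, 4560 were lower and 5611 higher.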

How the data were processed

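RNA of C2C12 cells was hybridised to 4 one-colour Agilent arrays. Conditions and experiments were taken from the labels. The authors deposited spot intensities of each array from Agilent Feature Extraction, background-corrected within the array and not normalized between arrays, and a table of quantile-normalized intensities on a linear scale (medians 119.25 to 119.625), which ranks spots as the raw median signal does.

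Intensities were taken to log2 and quantile-normalized over 59305 non-control spots (R 4.3.3, limma 3.58.1). Outlier spots (145 to 177 per array) were set to missing and spots of a probe averaged. A probe was well above background where at least 0.5 of its spots were flagged so; probes "above background" were so on both arrays of a condition (25540, of which 25523 had all 4 values). The model (lmFit, eBayes, expected share 0.01) had the condition as its only term, or the experiment, with calls at B above 0 over all probes. Unless a block is named, each SE and p comes from that model. The SE between conditions then includes any shift between the experiments. The number of arrays limits the precision.

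Replicate numbers pair the samples, because the labels give them as experiments and the arrays of one shared a slide. Arrays of the same number deviated together from their condition means (r = 0.714). Arrays of an experiment correlated at 0.981 and 0.976, and those of a condition at 0.965 and 0.961. The RNA integrity number was 8 on one array, siFxr1 of experiment 1, and 9 on the other arrays.

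The members and lists were chosen with earlier results of these data known. Named are all member probes, Fxr1, and from each role of the pathway up to 3 genes with the largest difference between conditions and the same sign in both experiments, and up to 2 with the largest difference between experiments, among genes measured on all arrays. One target gene is in the counts but is not reported here by name. Positions are the array's, on mm9. Probes were not assigned to exons. Symbols were checked through RefSeq accessions (26413 probes matched).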

Additional observations from a re-analysis of the deposited data

How the results depend on the processing

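No alternative called a member between the conditions. Over all probes, the replicate block alone called 0 probes, the replicate block with only probes above background 354, and the 4 ratios 1107 with 2 pathway genes. The filtered block called both Fxr1 probes. The block alone changed no call. Leaving out an array gave 0 calls between the conditions for all probes, members and pathway.

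Between the experiments, calls over all probes were 1601 under 75th percentile scaling, 519 with only probes above background, 0 at an adjusted p under 0.05, and 0 to 325 with an array left out. The member count became 1, Tgfb2 A_51_P317640, under 75th percentile scaling, normexp, median signal minus local background, the authors' table, the filter, and the filter with the condition as a block, and stayed 0 with the condition as a block alone and with an array left out. The pathway count was 3 with normexp, 1 with median minus background, 3 with the table, 1 with the filter, 2 with the filter and block, and 0 to 1 with an array left out. The cause was not tested. The 75th percentile scaling moved the median of all probes from 0.02 to 0.07 between the conditions and from 0.07 to 0.15 between the experiments.

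Over 5 settings that kept all arrays, the difference of Inhba was 1.15 to 1.30, that of Fst 0.87 to 1.02 and that of Inha 1.78 to 2.48. That of Pmepa1 turned from -0.049 to 0.010 with normexp, 0.047 with median minus background and 0.045 with the table. With an array left out, Inhba was 1.02 to 1.52, Fst 0.24 to 1.69, Bmp4 -1.19 to -0.07, Tgfb3 -0.77 to -0.085, Inha 1.48 to 3.31 and Dcn 0.52 to 2.02. Signs turned for Fstl3 (-0.10 to 0.87), Tgfb1 (-0.63 to 0.25), Tgfb2 (-0.52 to 0.71 for A_65_P10913 and -0.99 to 1.28 for A_51_P317640), Tdgf1 (-0.32 to 0.73), Smad4 (-0.053 to 0.17), Smad9 (-0.65 to 0.15), Smurf1 (-0.018 to 0.88), Pmepa1 (-0.78 to 0.68), Gdf5 (-0.76 to 1.63), Nodal (-0.25 to 0.39), Grem1 (-0.28 to 1.55), Ltbp2 (-0.98 to 1.86), Ltbp4 (-1.48 to 0.14), Furin (-0.047 to 0.33), Bmp1 (-0.54 to 0.63), Ctgf (-0.29 to 1.64) and Tgfbi (-0.35 to 2.52). Between the experiments they turned for Inhba (-1.12 to 0.16), Bmp4 (-0.017 to 1.16), Gdf15 (-0.26 to 0.33), Bmpr1a (-0.22 to 1.34) and Inha (-0.72 to 2.58). Signal over background limits Mstn, Bmp2 and one Bmp4 probe, which no array measured.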
